A study of Mus musculus with 4 samples.

Results

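The human B cell identity genes MS4A1, CD79A, CD79B, PAX5, CD22, VPREB3, TCL1A, CD24 and FCRLA are described here in single-cell RNA counts from humanized mice. These 9 genes, of 33538 human genes counted, were chosen by name as markers that are held by B cells as a whole or that differ between their immature and mature stages. Their counts were read in barcodes with more than 50% of unique molecular identifiers (UMIs) on human genes, and a barcode was called a B barcode where it held a UMI of MS4A1 or CD79A and none of CD3D, CD3E or CD3G. This gave 2805 B barcodes of 17020 human barcodes kept after filtering.

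The study engrafted mice with human cord blood CD34+ cells and asked how a spinal cord injury changes the human immune cells that grow from them. All hosts were of the NSG-SGM3 genotype, with the alleles NOD.Cg-Prkdcscid and IL2rgtm1Wjl and the transgenes Tg(CMV-IL3,CSF2,KITLG)1Eav/MloySzJ. Such mice lack mouse B, T and natural killer cells, keep mouse myeloid cells, and make human IL3, CSF2 and KITLG from a CMV promoter. Live cells stained for human CD45 were sorted and run on 10x 3' v3 chemistry in 1 sequencing run. The labels give a host age of 15 weeks without naming the step it refers to. The 4 groups were blood of untreated mice (naïve), blood taken 7 days after a T9 laminectomy (sham), blood taken 7 days after a T9 spinal cord injury (SCI), and the injured spinal cord at the same time. Each group was 1 library of cells pooled from several animals, so no test between groups was possible, and every 95% interval below (exact Poisson for counts, Clopper-Pearson for shares, conditional binomial for ratios) covers counting error only. Hosts were male for naïve and sham blood and of both sexes for the SCI libraries, so host sex and condition cannot be told apart. Whether the libraries held cells of the same cord blood donors is not given in the sources used here, so a difference between donors and one between conditions cannot be told apart either.

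B cells are recognized by an antigen receptor made of an immunoglobulin and the signalling chains CD79A and CD79B, around which co-receptors such as CD20 and CD22 set the strength of the response. The programme is held by the transcription factor PAX5 from the earliest committed precursor until a cell becomes an antibody-secreting plasma cell, which shuts most of these genes off. Newly made B cells leave the bone marrow with high CD24 and TCL1A and with remnants of the precursor-stage machinery such as VPREB3, and lose these as they mature.

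B barcodes were 1396 of 6323 kept human barcodes in naïve blood, or 22.1% (21.1 to 23.1%). In sham blood they were 545 of 4645, or 11.7% (10.8 to 12.7%), in SCI blood 855 of 5934, or 14.4% (13.5 to 15.3%), and in the injured cord 9 of 118, or 7.63% (3.55 to 14.0%). The share was thus highest in naïve blood and the blood intervals did not overlap, while the 9 cord barcodes are given as a description. The libraries held 34161760, 36007208, 36487994 and 4206461 UMIs over both species, and the B barcodes 7715652, 3399833, 4493176 and 138720, in the order naïve, sham, SCI blood and SCI cord, which is kept throughout. Median depth per B barcode was 3892, 5673, 4863 and 11602 UMIs. Levels are given in CPM, the gene's summed UMIs scaled to one fixed total of human UMIs outside ribosomal and mitochondrial genes, and shares of barcodes with a UMI also after each barcode was thinned to 1000 UMIs, since depth differed.

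Scrublet, with the highest scores marked up to 0.8% per 1000 barcodes, marked 436, 277, 378 and 0 barcodes as doublets, and those with over 3000 genes were removed. Marked barcodes that stayed among B barcodes numbered 13, 4, 3 and 0. A UMI of MS4A1 or CD79A together with CD3 occurred in 550, 527, 757 and 9 further kept barcodes, which the rule leaves out. Kept barcode sequences shared between libraries numbered 6 for naïve and sham, of which 1 was a B barcode in both, 10 for naïve and SCI, 4 for sham and SCI, and 1 for SCI blood and cord, the last 3 with no B barcode.

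The B cell label was checked against its markers. After thinning, and without the plasma-gene barcodes described below, MS4A1 had a UMI in 93.7%, 95.2% and 91.1% of the barcodes chosen by CD79A in naïve, sham and SCI blood, and CD79A in 77.5%, 75.3% and 70.6% of those chosen by MS4A1. Of the 7 members that the rule does not use, at least 1 had a UMI in 89.5%, 93.0%, 93.7% and 77.8% of thinned B barcodes, again without the plasma-gene ones, against 6.12%, 5.63%, 4.59% and 15.9% of T barcodes (a CD3 UMI and no MS4A1 or CD79A), none of which held more than 1. Median depth in T barcodes was 3555, 5071, 4596 and 8087 UMIs.

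The T barcodes also give a background, in which free RNA and RNA of the T cells themselves are not told apart. PAX5 had a UMI in 0.0738%, 0.206%, 0.167% and 0% of unthinned T barcodes, and CD22 in 0.148%, 0.118%, 0.143% and 2.90%. VPREB3 was in 0.0492%, 0.147%, 0.191% and 0%, TCL1A in 0.344%, 0.206%, 0.478% and 0%, and FCRLA in 0.344%, 0.236%, 0.239% and 0%. These blood shares were all below 0.5%, in barcodes that the rule keeps free of MS4A1 and CD79A. CD79B was the exception, with a UMI in 20.4%, 23.5%, 18.5% and 36.2% of T barcodes (5.46%, 5.16%, 4.01% and 8.70% after thinning) and 87.3, 70.0, 64.6 and 80.6 CPM. CD24 had a UMI in 0.664%, 1.12% and 0.932% of blood T barcodes and in 11.6% of cord T barcodes, where 99 of its 285 UMIs were in 1 barcode. MS4A1 and CD79A are 0 in T barcodes by the rule, so all CD3 barcodes were read as well, a choice made after seeing the data. There, with doublets included, thinned MS4A1 was in 2.58%, 1.15%, 2.45% and 0% and thinned CD79A in 3.92%, 2.65%, 3.80% and 1.28%. Other shares were higher there than in T barcodes, with unthinned TCL1A in 2.17%, 0.919% and 2.14%, FCRLA in 1.86%, 0.893% and 1.5% and CD22 in 1.60%, 0.587% and 1.42% of the blood barcodes.

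A class of B barcodes with genes of antibody secretion set naïve blood apart. Plasma-gene barcodes, those with UMIs of at least 2 of TNFRSF17, DERL3, PRDM1 and SDC1, were 200 of the 1396 B barcodes of naïve blood, or 14.3% (12.5 to 16.3%). Sham blood held 0 of 545, which allows up to 0.675%, and SCI blood 3 of 855, or 0.351% (0.0724 to 1.02%). The cord held 0 of 9, which allows up to 33.6%. The class is thus close to absent in sham and SCI blood at this depth, and its barcodes were deep, with a median of 13194.5 UMIs against 3607 in the other naïve B barcodes. Member levels per library are therefore given with and without it, while thinned shares and readings along TCL1A and the stage score leave it out unless said otherwise.

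MS4A1 (ENSG00000156738), which encodes the surface protein CD20, stood at 2453.4, 4418.7, 4375.8 and 2458.3 CPM in all B barcodes. Without plasma-gene barcodes naïve blood was at 4101.1 and SCI blood at 4408.8 CPM, with sham blood and cord as before since they held none. The low naïve level was thus seen with plasma-gene barcodes in, and without them the 3 blood libraries lay close together. MS4A1 had a UMI in 97.8%, 99.1%, 99.5% and 77.8% of barcodes outside the plasma-gene class, and in 91.8%, 92.8%, 91.5% and 66.7% after thinning, in part through the rule.

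CD79A (ENSG00000105369) and CD79B (ENSG00000007312) are the signalling chains of the B cell receptor. CD79A was at 1227.9, 2002.5, 2017.7 and 1548.6 CPM, and naïve blood at 1916.6 and SCI blood at 2029.2 CPM without plasma-gene barcodes. CD79B was at 1168.6, 1829.9, 2104.4 and 1537.8 CPM, and naïve blood at 1795.4 and SCI blood at 2118.5 CPM without them. Outside the plasma-gene class both chains were near the same level in naïve and sham blood, and CD79B was highest in SCI blood. After thinning, CD79A was in 75.9%, 73.4%, 71.0% and 55.6% and CD79B in 72.4%, 71.2%, 71.9% and 55.6% of barcodes (unthinned 98.2%, 98.9%, 98.7% and 100%, and 96.2%, 98.2%, 98.5% and 88.9%).

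PAX5 (ENSG00000196092), the transcription factor of B lineage commitment, and CD22 (ENSG00000012124), a sialic-acid-binding receptor that dampens receptor signalling, were far lower. PAX5 was at 140, 237, 225 and 227 CPM, and naïve and SCI blood at 226 each without plasma-gene barcodes. CD22 was at 152, 305, 281 and 227 CPM, and naïve blood at 255 and SCI blood at 283 without them. Both were thus lowest in naïve blood with all barcodes, and without the plasma-gene class PAX5 was nearly level across the blood libraries. In thinned barcodes outside that class PAX5 was in 16.8%, 16.3%, 13.4% and 0% (the last allows up to 33.6%) and CD22 in 19.5%, 17.6%, 18.7% and 33.3%, against unthinned shares of 43.3%, 58.2%, 47.4% and 77.8%, and 46.9%, 66.6%, 53.8% and 77.8%. No order of the blood libraries is read from the thinned shares.

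VPREB3 (ENSG00000128218), a protein of the endoplasmic reticulum linked to assembly of the precursor B cell receptor, was at 126, 260, 227 and 812 CPM, and naïve blood at 212 and SCI blood at 228 without plasma-gene barcodes. TCL1A (ENSG00000100721), a co-activator of the kinase AKT, was at 522, 1187.3, 1151.3 and 1505.3 CPM, and naïve blood at 878 and SCI blood at 1161.4 without them. CD24 (ENSG00000272398), a lipid-anchored surface glycoprotein, was at 197, 388, 398 and 856 CPM, and naïve blood at 331 and SCI blood at 402 without them. In these 3'-end counts TCL1A had the most UMIs of the stage-marking genes, and the cord barcodes were the highest for each. Naïve blood was the lowest with all B barcodes, and without the plasma-gene class it stayed lowest for TCL1A and CD24, while its VPREB3 lay within counting error of SCI blood. CD24 has near-identical copies elsewhere in the genome, so its level is less certain. In thinned barcodes outside the class VPREB3 was in 13.5%, 16.1%, 12.2% and 44.4% and CD24 in 19.2%, 21.1%, 20.2% and 44.4% (unthinned 32.8%, 47.9%, 42.4% and 88.9%, and 48.5%, 62.6%, 62.2% and 77.8%).

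FCRLA (ENSG00000132185), an intracellular Fc receptor-like protein that binds immunoglobulin, was at 199, 376, 338 and 303 CPM, and naïve blood at 333 and SCI blood at 341 without plasma-gene barcodes. It was in 19.6%, 23.3%, 20.2% and 33.3% of thinned and 54.9%, 76.7%, 63.1% and 77.8% of unthinned barcodes outside the class. Without the class its naïve level was close to that of SCI blood and below that of sham blood.

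**Figure D1:**
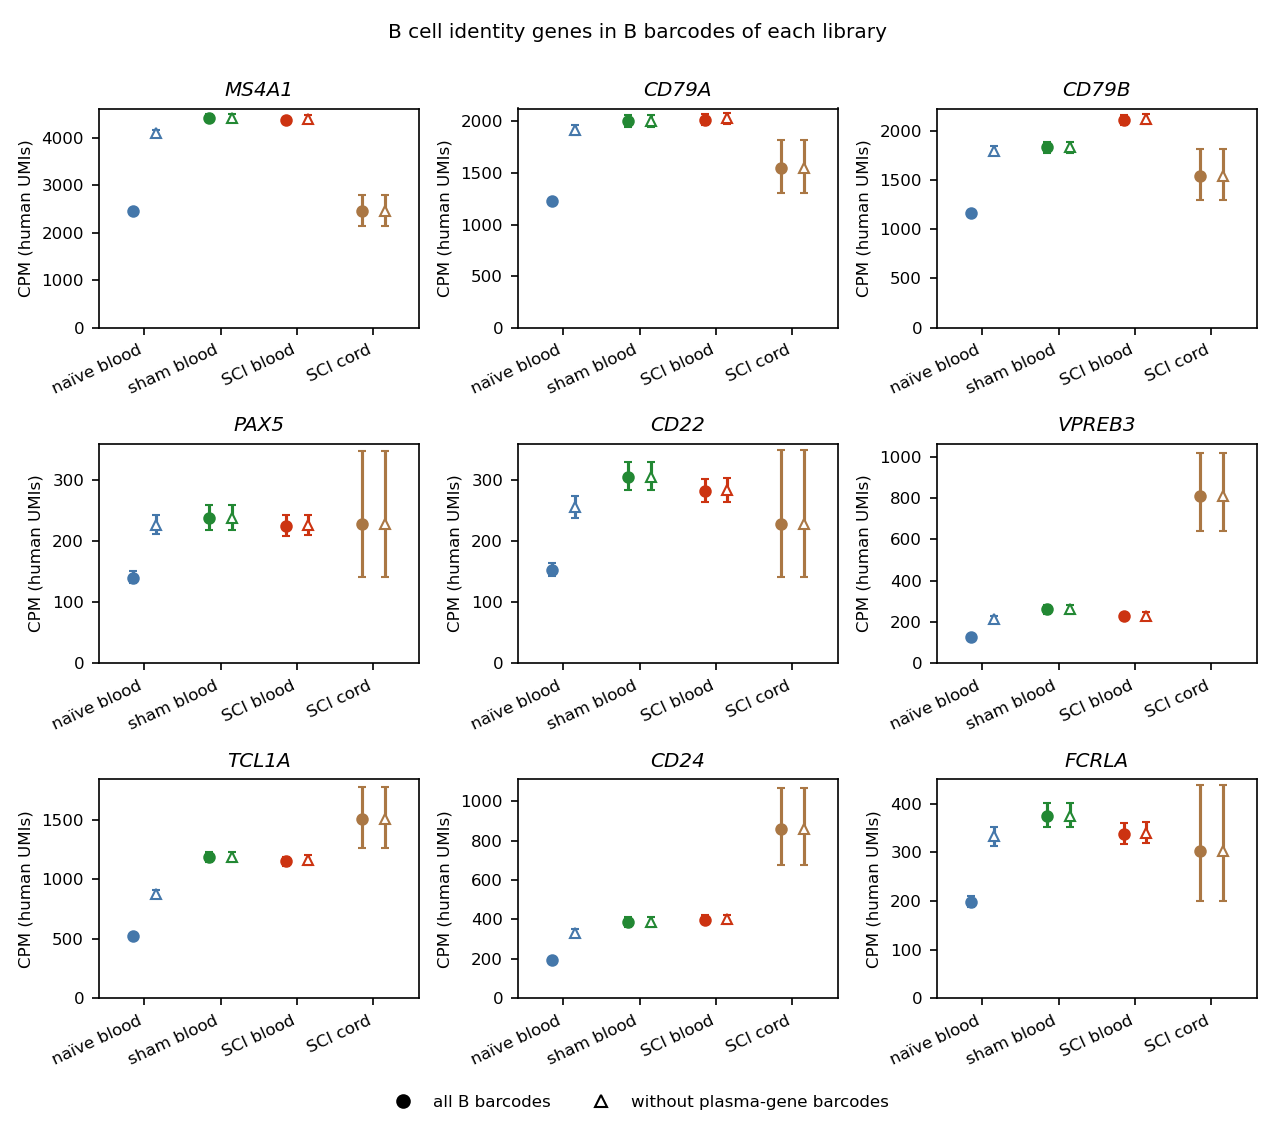
Level of each member in CPM (linear axes from 0) in the B barcodes of the 4 libraries, with all B barcodes and without plasma-gene barcodes, and exact Poisson 95% intervals for counting error only. MS4A1 in naïve blood moves from 2453.4 to 4101.1 CPM when the plasma-gene barcodes are left out, and TCL1A from 522 to 878 CPM.

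Within naïve blood the plasma-gene barcodes were set against the other B barcodes to see which identity genes they keep. All 9 members, among them all 7 that the rule does not use, were at least 2-fold lower in them, where 35.7% of all genes were. Of the members that the rule does not use, CD79B and PAX5 differed least and the stage-marking genes most. CD79A was at 224 CPM against 1916.6, a log2 ratio of -3.09 (-3.23 to -2.97), and CD79B at 255 against 1795.4, or -2.81 (-2.94 to -2.69). PAX5 was at 14.6 against 226 CPM, or -3.93 (-4.49 to -3.46). CD79B and PAX5 were thus lower but still present. The levels of CD79A and MS4A1 were set in part by the rule, and most of these barcodes entered through CD79A. MS4A1 was at 52.0 against 4101.1 CPM, or -6.30 (-6.57 to -6.04), FCRLA at 5.16 against 333, or -5.95 (-6.97 to -5.20), and CD22 at 3.01 against 255, or -6.31 (-7.72 to -5.36). CD24 was at 1.72 against 331 CPM, or -7.42 (-9.47 to -6.23), and TCL1A at 3.01 against 878, or -8.09 (-9.51 to -7.14). VPREB3 had 0 counts there against 718 elsewhere, or 164-fold lower when 0 is set at a floor of 3 counts. The exact 95% upper limit for its log2 ratio was -7.06, a smaller difference than that floor gives.

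Most of these barcodes met the rule through CD79A, which without thinning had a UMI in 96.5% of them, against 18.5% for MS4A1. CD79B was in 90%, PAX5 in 14.0%, FCRLA in 5%, TCL1A in 3.00%, CD22 in 2.50% and CD24 in 2.00%, while VPREB3 was in 0%, which allows up to 1.83%. After thinning, MS4A1 was in 3 of the 40 that still held CD79A, or 7.5%. The 8 genes of the plasma cell list were all at least 2-fold higher in the class, where 7.98% of all genes were, and 4 of them were so by its definition. Of the other 4, XBP1, which drives the secretory programme, was at 1031.0 against 80.5 CPM (log2 3.68), JCHAIN, which joins antibody multimers, at 18974.3 against 2482.8 (2.93), MZB1, a chaperone of antibody assembly, at 2971.4 against 410 (2.86), and the transcription factor IRF4 at 135 against 53.9 (1.32).

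Sham blood was compared with naïve blood, and SCI blood with naïve blood, to see how the members differ after either operation. The 2 comparisons share the naïve library. In all B barcodes every member was higher in sham than in naïve blood, 9 of 9 by at least 1.5-fold, where 19.3% of all genes were that much higher and 9.86% that much lower. Of the 9, MS4A1 and CD79A are used by the rule. Without plasma-gene barcodes 0 of 9 members passed 1.5-fold in either direction, where 4.84% of genes were higher and 5.75% lower. The stage-marking genes and CD22 had the largest log2 ratios of sham over naïve blood both ways. TCL1A was at 1.19 (1.11 to 1.26) with all B barcodes and 0.44 (0.36 to 0.51) without the class, VPREB3 at 1.05 (0.89 to 1.21) and 0.30 (0.14 to 0.46), CD22 at 1.00 (0.86 to 1.14) and 0.26 (0.11 to 0.40), and CD24 at 0.98 (0.85 to 1.10) and 0.23 (0.10 to 0.35). For the pan-B genes little was left. FCRLA was at 0.92 and 0.18 (0.05 to 0.31), MS4A1 at 0.85 and 0.11 (0.07 to 0.14), PAX5 at 0.76 and 0.07 (-0.09 to 0.23), CD79A at 0.71 and 0.06 (0.01 to 0.12), and CD79B at 0.65 and 0.03 (-0.03 to 0.08), the last turning to -0.02 when barcodes with even 1 plasma gene were left out, an alternative chosen after seeing the data. The median of all genes was 0.23 with all B barcodes and 0.02 without the class. Normalization by TMM moved that median by -0.28, and taking the mean over barcodes moved it by -0.17. Leaving immunoglobulin genes out moved it by -0.19 and counting ribosomal and mitochondrial genes by -0.10. Members past 1.5-fold were 5 under TMM, where 826 genes were higher and 1795 lower of 10972, and 1 with the mean over barcodes (729 and 933). They were 6 without immunoglobulin genes (1065 and 1495) and with at least 2 UMIs of MS4A1 and CD79A together (1145 and 946). With ribosomal and mitochondrial genes counted they were 8 (1490 and 1247), and as UMIs per barcode 9 (2764 and 944).

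In SCI blood, too, every member was higher than in naïve blood with all B barcodes, 9 of 9 by at least 1.5-fold, where 19.4% of all genes were that much higher and 11.1% that much lower. MS4A1 and CD79A, used by the rule, are again among the 9. Without plasma-gene barcodes 0 of 9 passed, where 5.09% of genes were higher and 7.49% lower. TCL1A again had the largest log2 ratio of SCI over naïve blood, 1.14 (1.07 to 1.21) with all B barcodes and 0.40 (0.33 to 0.48) without the class. CD24 was at 1.01 (0.89 to 1.13) and 0.28 (0.16 to 0.40), and CD79B at 0.85 (0.80 to 0.90) and 0.24 (0.19 to 0.29). CD22 was at 0.88 and 0.15 (0.01 to 0.29), VPREB3 at 0.86 and 0.11 (-0.05 to 0.26), and MS4A1 at 0.83 and 0.10 (0.07 to 0.14). The remaining members lay at 0 within counting error or close to it once the class was out: CD79A at 0.72 and 0.08 (0.03 to 0.13), FCRLA at 0.76 and 0.04 (-0.09 to 0.16), and PAX5 at 0.68 and 0.00 (-0.16 to 0.15). With barcodes holding even 1 plasma gene left out as well, FCRLA turned to -0.06 and PAX5 to -0.13. The median of all genes was 0.21 with all B barcodes and 0.00 without the class. TMM moved it by -0.24, taking the mean over barcodes by -0.16 and leaving immunoglobulin genes out by -0.19. Counting ribosomal and mitochondrial genes moved it by -0.17 and taking UMIs per barcode by -0.25. Members past 1.5-fold were 0 with the mean over barcodes, where 784 genes were higher and 1029 lower of 11084. They were 4 with at least 2 UMIs of MS4A1 and CD79A together, where 1302 were higher and 1087 lower of 10866. They were 6 under TMM (1048 genes higher and 1848 lower), as UMIs per barcode (1020 and 1866) and without immunoglobulin genes (1211 and 1668). With ribosomal and mitochondrial genes counted they were 7 (1273 and 1647).

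SCI blood was also set against sham blood, both taken after an operation. No member passed 1.5-fold in either direction, 0 of 9, where 4.63% of all genes were that much higher and 6.15% that much lower. Without plasma-gene barcodes it was again 0 of 9, where 4.71% of genes were higher and 6.06% lower, with CD79B at 0.21, VPREB3 at -0.19 and FCRLA at -0.14. With all B barcodes CD79B had the highest log2 ratio of SCI over sham blood, 0.20 (0.15 to 0.26), which turned to -0.12 when levels were taken as UMIs per barcode. VPREB3 had the lowest, -0.20 (-0.36 to -0.04), followed by FCRLA at -0.15 (-0.29 to -0.02). The other members lay between -0.11 (CD22) and 0.04 (CD24), MS4A1 at -0.01 (-0.05 to 0.02) and TCL1A at -0.04 (-0.12 to 0.03). Taken as UMIs per barcode all 9 were lower in SCI blood, and the median of all genes moved by -0.33. The genes past 1.5-fold split by scaling as well: of them 74.5%, 35.3% and 8.99% were higher as UMIs per barcode in sham v naïve, SCI v naïve and SCI v sham blood, 54.4%, 43.6% and 30.8% with ribosomal and mitochondrial genes counted, and for the first pair 31.5% and 36.2% under TMM, 43.9% and 43.2% with the mean over barcodes, 41.6% and 42.1% without immunoglobulin genes, and 45.7% and 40.5% without plasma-gene barcodes. With the settings as given the calls were 2122 higher and 1082 lower of 10972 genes for sham v naïve, 2145 and 1231 of 11084 for SCI v naïve, and 478 and 634 of 10314 for SCI v sham blood.

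Markers of other cell types were read in the same B barcodes, and their part in these results was not tested. Without plasma-gene barcodes the 7 monocyte genes summed to 1345.3, 1416.2, 786 and 390 CPM, led by S100A9, CST3, S100A9 and CST3, with CD14 at 0 in SCI blood. Few barcodes held S100A9, with a UMI in 2.01%, 2.39% and 1.06% of those of naïve, sham and SCI blood. In SCI blood the 950 UMIs of S100A8 were in 0.235% of barcodes, and the natural killer gene GNLY was in 2.00%. The 7 basophil and mast cell genes summed to 30.4, 181, 72.5 and 1678.5 CPM, led by FCER1A, CLC, MS4A2 and CLC, with GATA2 and FCER1A at 0 in the cord. Basophil genes thus stood highest in sham blood among the blood libraries and very high beside the 9 cord barcodes. The 6 natural killer cell genes summed to 36.8, 17.4, 92.3 and 21.7 CPM, led by GNLY in naïve and SCI blood and by NKG7 in sham blood, while both were at 10.8 CPM in the cord, with NCAM1 at 0 in the 3 blood libraries and KLRF1 at 0 in naïve and sham blood. The 8 T cell genes other than CD3 summed to 216, 231, 251 and 195 CPM, led by TRBC2, against 9372.0, 9264.1, 9032.1 and 9020.2 CPM in T barcodes. The 6 plasmacytoid dendritic cell genes, led by IRF7, summed to 380, 433, 395 and 260 CPM. The 8 plasma cell genes, led by JCHAIN, summed to 11608.8, 2057.6, 1867.7 and 3974.4 CPM in all B barcodes and to 3090.1, 2057.6, 1723.7 and 3974.4 CPM without the class, where SDC1 was at 0. The 6 cell cycle genes summed to 370, 190, 64.4 and 650 CPM in all B barcodes, led by TYMS in naïve blood, and to 143, 190, 63.6 and 650 CPM without the class, led by PCNA.

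Related gene groups were read beside the members, without plasma-gene barcodes unless said otherwise. Of 24 genes of the B cell receptor pathway, 14 were at least 1.5-fold higher in sham and 12 in SCI than in naïve blood with all B barcodes, where 19.3% and 19.4% of all genes were, against 1 in each comparison without the class, where 4.84% and 5.09% were and their median log2 ratios were 0.06 and 0.08. Of 22 B cell transcription factors 10 were higher in sham and 12 in SCI blood with all B barcodes (medians 0.53 and 0.61), beside the same shares of all genes, while 3 were lower in each, where 9.86% and 11.1% of all genes were. Without the class 0 of 21 were higher (medians 0.07 and 0.14) and 2 and 3 were lower. Of the immature-stage genes 4 of 8 were higher in sham than in naïve blood, with a median of 0.47, where 4.84% of all genes were. In SCI blood 4 of 7 were lower and 1 higher, with a median of -0.76, where 7.49% and 5.09% of all genes were. The difference between the sham and SCI results was not tested. Of the memory-stage genes 5 of 12 were lower in sham blood (median -0.49), where 5.75% of all genes were, and 6 of 12 in SCI blood (median -0.60), where 7.49% were. Genes of naive mature B cells had medians of -0.07 and 0.16, and plasma cell genes were lower for 2 of 6 in sham and 5 of 6 in SCI blood. Between SCI and sham blood, with all B barcodes, 6 of 8 immature-stage genes were lower and 1 higher in SCI blood, where 6.15% and 4.63% of all genes were. The medians were 0.12 for naive mature, -0.35 for memory, -0.02 for receptor pathway and 0.05 for transcription factor genes.

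The genes furthest apart between the libraries are named next. In sham over naïve blood with all B barcodes the lowest were CAV1, with 0 counts against 390, HRASLS2 at a log2 ratio of -6.64 (-12.53 to -4.73) on 1 count, PERP at -5.32 (-7.83 to -3.98) on 3 counts, the plasma cell receptor TNFRSF17 at -4.69 and the water channel AQP3 at -4.63. The highest were CPVL at 4.21, CLC, the Charcot-Leyden crystal protein of basophils and eosinophils, at 3.94, CST3 at 3.33, FGL2 at 1.91 and the monocyte lysozyme LYZ at 1.81. In sham blood CLC had a UMI in 1.10%, LYZ in 4.59% and CST3 in 11.7% of B barcodes. There 9 B barcodes held at least 3 monocyte, basophil or natural killer genes, 7 of them with 1 UMI of MS4A1 and CD79A together. The part of these barcodes in the ratios was not tested. Without the class the lowest were the memory marker CD27 at -1.78, ZBTB32 at -1.56, LMAN1 at -1.41, the integrin ITGB1 at -1.40 and S100A8 at -1.34, and the highest CPVL at 3.46, CLC at 3.33, CST3 at 2.83, U62317.5 at 1.21 and FGL2 at 1.18. Of the cell type lists without the class, 2 of 7 monocyte genes were higher and 3 lower in sham blood, and 6 of 6 basophil and mast cell genes were higher, where 4.84% of all genes were higher and 5.75% lower. In SCI over naïve blood 3 of 3 natural killer and 4 of 6 basophil and mast cell genes were higher, and 5 of 6 monocyte and 5 of 6 cell cycle genes lower. There 5.09% of all genes were higher and 7.49% lower. Plasmacytoid dendritic cell genes were higher for 2 of 4 in sham and 3 of 5 in SCI blood (medians 0.50 and 0.85). In sham blood 2 of 6 cell cycle genes were higher and 1 of 2 natural killer genes lower. Of 8 T cell genes 1 was higher in sham blood, and 2 were higher and 1 lower in SCI blood.

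For SCI over naïve blood with all B barcodes the lowest were HRASLS2, with 0 counts against 361, the DNA synthesis enzymes RRM2 at -7.49 (-13.38 to -5.59) on 1 count and TYMS at -6.31 (-8.81 to -4.97) on 3 counts, FNDC3B at -5.76 (-8.26 to -4.42) and MAP1B at -5.61 (-8.12 to -4.27), each on 3 counts. Besides an HLA gene that led the ratios and is not reported here, the highest were the chemokine CCL4L2 at 4.02, FAM118A at 2.97, TCL1B, a relative of TCL1A, at 2.24, and FCRL3, an Fc receptor-like surface protein, at 2.06. Without the class these 4 were at 4.52, 2.83, 1.5 and 1.33, and the lowest were AIM2 at -2.18, LYZ at -2.06, ITGB1 at -1.83, CD27 at -1.75 and LMAN1 at -1.67. TCL1B, like TCL1A, was thus higher in SCI blood with and without the class, at 55.4 against 19.5 CPM without it. In SCI over sham blood with all B barcodes CPVL was at -5.89 (-9.27 to -4.32) on 2 counts, CST3 at -4.36, LYZ at -3.14, CLC at -3.13 and FGL2 at -3.02, while, again besides that HLA gene, the cytotoxic granule gene GNLY was at 5.15 (3.79 to 7.66) against 3 counts, CCL4L2 at 2.35, FAM118A at 2.16 and CCL4 at 1.47.

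Position along the immature to mature axis was read from TCL1A, which is high in newly made B cells. Memory-stage genes had median log2 ratios of -1.78, -1.25 and -0.90 in TCL1A-positive over negative barcodes of naïve, sham and SCI blood. Genes of naive mature B cells had medians of 0.34, 0.01 and 0.02. A TCL1A-positive share is therefore not read as a share of immature cells. Outside the plasma-gene class and after thinning, TCL1A had a UMI in 37.0% (34.3 to 39.8%) of naïve, 46.6% (42.4 to 50.9%) of sham, 48.1% (44.7 to 51.5%) of SCI blood and 55.6% (21.2 to 86.3%) of cord B barcodes, and in 59.3%, 81.7%, 80.6% and 77.8% without thinning. The share was lowest in naïve blood, sham and SCI blood could not be told apart, and the cord interval spans all of them. With at least 2 UMIs asked for, the shares were 18.6%, 23.3% and 21.0% in the blood libraries. In T barcodes thinned TCL1A was in 0.0738%, 0%, 0.0956% and 0%.

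The 443, 254 and 410 TCL1A-positive barcodes of naïve, sham and SCI blood were compared with the 753, 291 and 442 negative ones of their own library, which sets the libraries' own differences aside. Exactly 1 TCL1A UMI after thinning was held by 220, 127 and 231 of the positive ones, so the line runs through a range and does not part types. Positive barcodes were somewhat shallower, with median UMIs of 3278 against 3872, 5256.5 against 6085 and 4653.5 against 5102. TCL1A itself, used by the split, was at 2173.7 against 289, 2153.2 against 509 and 1941.3 against 534 CPM. Of the other 8 members, 1 was at least 2-fold higher in naïve blood, where 2.35% of genes were and 3.98% were that much lower. In sham blood 1 of 8 was, against 1.61% higher and 3.69% lower, and in SCI blood 0 of 8, against 0.977% higher and 2.04% lower. The members' median log2 ratio was 0.59, 0.39 and 0.29 in naïve, sham and SCI blood, beside 0.04, 0.00 and 0.01 for all genes.

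The member past 2-fold was VPREB3. It was at 410 CPM in TCL1A-positive against 121 in negative barcodes of naïve blood, a log2 ratio of 1.76 (1.54 to 1.98). In sham blood it was at 384 against 173 CPM, or 1.15 (0.91 to 1.39), and in SCI blood at 313 against 160, or 0.97 (0.74 to 1.20). The level of VPREB3 was thus higher beside TCL1A in each blood library, 3.38-fold, 2.22-fold and 1.96-fold. Its thinned share was 22.8% against 7.97%, 18.9% against 13.7% and 13.4% against 11.1%, all above the T barcode background. The intervals of these shares were apart in naïve blood only. They overlapped in sham (14.3 to 24.3% against 10.0 to 18.2%) and SCI blood (10.3 to 17.1% against 8.31 to 14.4%). Without thinning the ratios were 2.36, 1.98 and 1.45, and with 2 TCL1A UMIs asked for 2.07, 1.41 and 1.10. With plasma-gene barcodes kept, naïve VPREB3 reached 2.75 and 8 of 8 members passed 2-fold. No share of all genes is given for that setting, so this count is not read as a result about the members. When barcodes with even 1 plasma gene were left out, an alternative chosen after seeing the data, VPREB3 was at 1.66, 0.95 and 0.98, so that none passed in sham blood.

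The remaining members kept smaller differences along TCL1A. FCRLA was at 469 against 271 CPM in naïve, 467 against 313 in sham and 412 against 284 in SCI blood, log2 ratios of 0.79, 0.58 and 0.54. CD22 was at 343 against 215, 357 against 268 and 331 against 245 CPM, or 0.68, 0.41 and 0.44. PAX5 was at 297 against 194, 270 against 214 and 251 against 205 CPM, or 0.61, 0.34 and 0.30. The levels of these genes were thus higher in TCL1A-positive barcodes, with the largest ratios in naïve blood. The thinned share of PAX5 in SCI blood was 13.2% against 13.6%, so no direction of PAX5 is read there. That share was nearly even in naïve blood too, at 17.2% against 16.6%, and 19.7% against 13.4% in sham blood, with intervals that overlap in each library. The thinned share of CD22 was 21.9% against 18.1%, 19.7% against 15.8% and 22.2% against 15.4%, again with intervals that overlap in each library. For FCRLA it was 24.6% against 16.6%, 25.2% against 21.6% and 24.1% against 16.5%, with intervals apart in naïve blood only. CD79B was at 2304.8 against 1564.0, 2223.0 against 1554.0 and 2347.6 against 1934.1 CPM, or 0.56, 0.52 and 0.28. CD79A was at 2398.2 against 1697.7, 2311.4 against 1785.6 and 2163.6 against 1921.2 CPM, or 0.50, 0.37 and 0.17. MS4A1 was nearly even, at 4480.4 against 3928.8, 4644.5 against 4260.2 and 4400.0 against 4415.9 CPM, or 0.19, 0.12 and -0.01.

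CD24 is the other classical marker of newly made B cells. It was at 385 against 307 CPM in naïve blood, a log2 ratio of 0.33 (0.15 to 0.50), at 351 against 413 in sham blood, or -0.23 (-0.43 to -0.04), and at 416 against 390 in SCI blood, or 0.10 (-0.07 to 0.26). Its thinned share was 22.3% in positive against 17.4% in negative barcodes of naïve, 22.8% against 19.6% of sham and 19.8% against 20.6% of SCI blood. Share and level thus pointed the same way in naïve blood only and opposite ways in sham and SCI blood, so no direction of CD24 is read there. The difference between libraries was not tested, and with 2 TCL1A UMIs asked for the sham ratio was 0.01. Markers of other cells moved along TCL1A as well, and their part was not tested: S100A9 was at 749, 620 and 664 CPM in TCL1A-negative against 602, 4.11 and 2.30 in positive barcodes, and LYZ at 150, 527 and 58.0 against 144, 8.22 and 7.67. Barcodes with at least 3 monocyte, basophil or natural killer genes numbered 12, 9 and 9, of which 11, 9 and 9 were TCL1A-negative and 7 in each library held 1 UMI of MS4A1 and CD79A together. Left out after seeing the data, they took CD24 to 0.38, -0.20 and 0.19 and VPREB3 to 1.75, 1.00 and 0.95, and sham MS4A1 to 0.00.

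**Figure D2:**
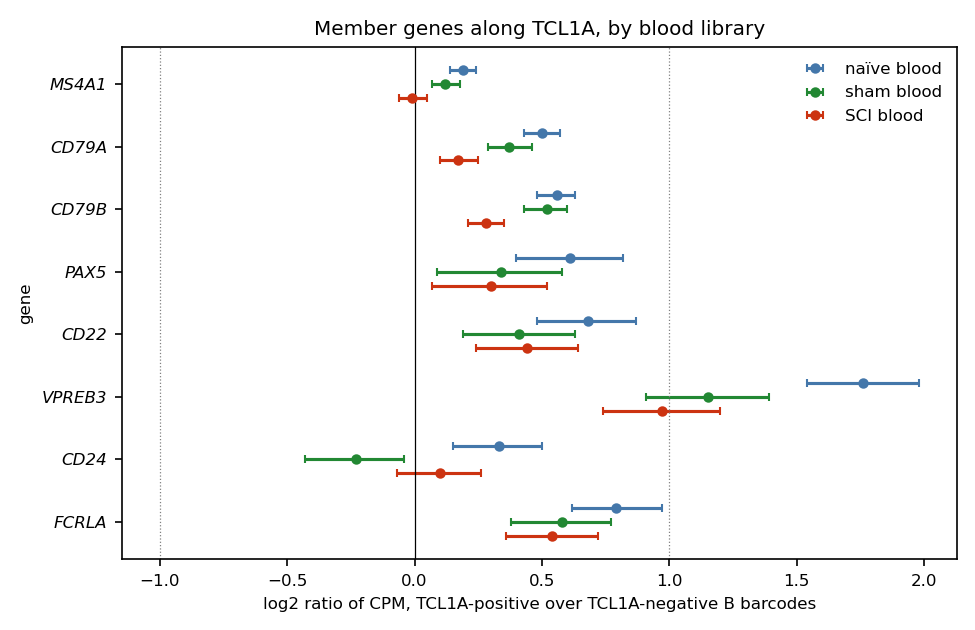
Log2 ratio of each member's CPM in TCL1A-positive over TCL1A-negative B barcodes in naïve, sham and SCI blood, without plasma-gene barcodes, with 95% intervals for counting error only and dotted lines at 2-fold. Among the members other than TCL1A, VPREB3 is highest in each library at 1.76, 1.15 and 0.97, and CD24 lies at 0.33, -0.23 and 0.10.

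Barcodes were also set in order by 0, 1 and at least 2 thinned TCL1A UMIs, a description chosen after seeing the data, with 753, 220 and 223 barcodes in naïve, 291, 127 and 127 in sham and 442, 231 and 179 in SCI blood. VPREB3 was at 121, 312 and 509 CPM in naïve, 173, 312 and 461 in sham and 160, 291 and 342 in SCI blood. FCRLA was at 271, 431 and 507, at 313, 438 and 497 and at 284, 374 and 464 CPM. CD79B was at 1564.0, 2143.7 and 2465.4, at 1554.0, 1978.3 and 2481.7 and at 1934.1, 2334.1 and 2365.7 CPM. CD79A was at 1697.7, 2362.9 and 2433.3, at 1785.6, 2196.3 and 2433.1 and at 1921.2, 2114.9 and 2229.1 CPM, and CD22 at 215, 327 and 360, at 268, 330 and 385 and at 245, 328 and 336 CPM. The levels of these 5 genes thus stood higher at each step in each blood library. The intervals of the later bins overlap for several of them, as for CD79B in SCI blood. PAX5 did not rise at the last step in naïve blood, at 194, 302 and 292 CPM. It was at 214, 236 and 307 CPM in sham and 205, 250 and 253 in SCI blood. MS4A1 was highest in the middle bin, at 3928.8, 4533.0 and 4427.9, at 4260.2, 4800.7 and 4479.3 and at 4415.9, 4533.2 and 4220.9 CPM. CD24 had no common order, at 307, 352 and 418, at 413, 290 and 416 and at 390, 429 and 399 CPM.

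Since the libraries differed in their TCL1A-positive share, members were compared between libraries inside each TCL1A class, again after seeing the data. No member but TCL1A passed 1.5-fold inside either class, where 5.33% to 7.11% of all genes were that much higher and 6.34% to 8.21% lower over the 6 comparisons. Among positive barcodes sham over naïve log2 ratios lay between -0.14 (PAX5) and 0.05, while SCI over naïve VPREB3 was at -0.39 (-0.59 to -0.19), PAX5 at -0.24 and CD24 at 0.11. Against sham blood, SCI VPREB3 was at -0.30 and CD24 at 0.24. VPREB3 was thus lowest in the TCL1A-positive barcodes of SCI blood. Among negative barcodes the order was another: VPREB3 was at 0.51 (0.26 to 0.77) in sham and 0.40 in SCI over naïve blood, CD24 at 0.43 and 0.34, and CD79B at -0.01 and 0.31. TCL1A, used by the split and read there in unthinned counts, was at 0.82 and 0.89.

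The genes most like TCL1A, ranked by their lowest log2 ratio over the 3 blood libraries among 4278 genes, placed VPREB3 at rank 4. Above it were AL139020.1 (2.28, 1.65 and 1.60), whose overlap with TCL1A was not analysed here, the lysosomal membrane protein LAMP5 (1.68, 1.37 and 1.22) and the DNA repair glycosylase NEIL1 (2.46, 1.21 and 1.36). Below it came the tetraspanin TSPAN13 (1.75, 1.35 and 0.91), the chromatin remodelling subunit BCL7A (1.39, 1.51 and 0.86), the protocadherin PCDH9 (1.94, 1.08 and 0.83) and TAPT1 (1.12, 1.05 and 0.82). Of the other members FCRLA ranked 22, CD22 55, PAX5 120, CD79B 136 and CD79A 300, while MS4A1 and CD24 did not hold a positive ratio in all 3 libraries and had no rank. In all 1064 genes were positive and 859 negative in each library. Most unlike TCL1A were SRGN, a granule proteoglycan (-2.01, -2.79 and -2.0), ANXA1, an annexin (-2.11, -3.41 and -1.71), the cytokine subunit EBI3 (-1.29, -1.16 and -1.32), the actin-severing GSN (-1.03, -1.06 and -1.30), TNFRSF13B, the receptor TACI of memory and plasma cells (-1.07, -0.96 and -0.90), S100A10 (-1.26, -0.90 and -0.95), TIMP1 (-1.31, -1.79 and -0.88) and PHF19 (-1.39, -1.22 and -0.84).

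Stage genes that the split did not use were then read along TCL1A. Of the 10 immature-stage genes 7, 8 and 4 had counts enough in naïve, sham and SCI blood, with 2, 2 and 1 of them at least 2-fold higher, where 2.35%, 1.61% and 0.977% of all genes were, and 0, 2 and 0 lower, and medians of 0.42, 0.40 and 0.46. CD38, an ectoenzyme of early and activated B cells, was at 0.32, 1.43 and 1.93, SOX4 at 0.42, 0.96 and 0.42, the tetraspanin CD9 at 0.74, 0.46 and 0.51, and PLD4 at 0.32, 0.34 and 0.40. The intervals of CD38 in naïve blood (-0.12 to 0.75) and of SOX4 in naïve (-0.01 to 0.84) and SCI blood (-0.04 to 0.88) included 0. Of the genes without counts enough in each blood library, chosen after their values were seen, MME was at 1.90 in naïve and 1.73 in sham blood, and VPREB1 at 1.08 and 0.28, while in sham blood IGLL1 was at 0 CPM in positive against 48.3 in negative barcodes and DNTT at 0 against 18.0. In naïve blood IGLL1 was at 11.3 against 8.57 CPM, or 0.42. Genes of naive mature B cells were mixed, 10 tested in each library with 2, 0 and 0 past 2-fold and medians of 0.34, 0.01 and 0.02. The receptor CD72 (1.20, 0.60 and 0.44), the IgD heavy chain IGHD (1.04, 0.58 and 0.45) and the repressor BACH2 (0.79, 0.66 and 0.28) had the highest ratios. The cytokine receptor IL4R (-0.33, -0.86 and -0.02) and the homing receptor CXCR5 (-0.45, -0.27 and -0.12) had intervals that include 0 in each library, and CCR7 was at 0.31, -0.60 and -0.06.

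Of the memory-stage genes 8 of 12, 7 of 11 and 5 of 11 were at least 2-fold lower in TCL1A-positive barcodes, where 3.98%, 3.69% and 2.04% of all genes were, with 0 higher and medians of -1.78, -1.25 and -0.90. In SCI blood most of the list thus did not pass. The integrin ITGAX was at -2.38, -2.53 and -4.64 (-10.54 to -2.66, on 1 count), the DNA sensor AIM2 at -2.50, -3.80 (-7.19 to -2.17, on 2 counts) and -2.11, and the co-stimulatory ligand CD80 at -1.67, -2.56 (-5.12 to -1.07, on 3 counts) and -1.74. Highest of the list were FCRL5 at 0.15, 0.14 and -0.19, ZEB2 at 0.46, 0.09 and 0.04 and CRIP1 at -0.45, -0.02 and -0.40. The list's median was thus lower beside TCL1A in each blood library, while ZEB2 was higher in naïve blood. Plasma cell genes had no common direction, with medians of -0.39, 0.41 and 0.15. Past 2-fold upward were 0 of 6, 1 of 6 and 0 of 6, where 2.35%, 1.61% and 0.977% of all genes were, and downward 2, 0 and 0. DERL3 was at 0.69, 1.42 and 0.79, TNFRSF17 at -1.36, -0.05 and -0.16, JCHAIN at -0.35, 0.73 and 0.47 and MZB1 at -0.33, 0.58 and 0.47.

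The 24 genes of the B cell receptor pathway had medians of 0.22, 0.21 and 0.07 along TCL1A, beside 0.04, 0.00 and 0.01 for all genes. Of them 1, 0 and 0 were at least 2-fold higher, where 2.35%, 1.61% and 0.977% of all genes were. FCRL1, a co-stimulating Fc receptor-like protein, was at 0.84, 0.73 and 0.57, the kinase subunit PIK3CD at 0.51, 0.55 and 0.11, the complement receptor CR2 at 0.54, -0.53 and -0.31 and DAPP1 at -0.11, 0.05 and 0.04. The members CD79A, CD79B and CD22 were thus above this pathway's median in each blood library. The 20 transcription factors with enough counts had medians of 0.26, 0.05 and 0.09, with 0 higher in any library. Of them 1, 0 and 0 were lower, where 3.98%, 3.69% and 2.04% of all genes were. AFF3 was at 0.95, 0.83 and 0.56, RUNX1 at 1.00, 0.17 and 0.39, the secretory factor XBP1 at -1.01, -0.27 and -0.85, ID3 at -0.94, -0.53 and -0.28 and POU2F2 at -0.07, -0.22 and -0.23.

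Lists of other cell types were read the same way. At least 2-fold lower in TCL1A-positive barcodes were 2 of 2, 1 of 1 and 3 of 3 natural killer genes, 0 of 6, 6 of 6 and 5 of 6 monocyte genes, 3 of 3, 5 of 5 and 6 of 6 basophil and mast cell genes and 5 of 6, 5 of 6 and 0 of 1 cell cycle genes, with 0 higher, beside the shares of all genes that were lower, 3.98%, 3.69% and 2.04%. T cell genes were mixed, 2 of 6 lower in naïve and 0 of 5 past 2-fold in SCI blood. In sham blood 1 of 5 was higher, where 1.61% of all genes were. Plasmacytoid dendritic cell genes had 0 of 3, 0 of 4 and 1 of 5 lower and medians of 0.34, 0.21 and 0.02. Natural killer and basophil genes with counts enough were thus all lower beside TCL1A, most monocyte genes in sham and SCI but not in naïve blood, and most cell cycle genes in naïve and sham blood, while in SCI blood only PCNA had counts enough.

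A score without any member gave a reading of stage in which TCL1A itself could be described. It took, in thinned barcodes, the number of immature-stage genes with a UMI minus the number of memory-stage genes with one. The memory-stage genes differed widely in level. CRIP1 was the highest of them, at 947 and 1290.5 CPM in TCL1A-positive and negative barcodes of naïve blood, where AIM2 was at 12.3 and 72.0. How far the most abundant genes set the score was not tested. Above 0 were 84 barcodes, or 7.02% (5.64 to 8.62%), of naïve, 49, or 8.99% (6.73 to 11.7%), of sham and 93, or 10.9% (8.90 to 13.2%), of SCI blood, at 0 were 321, 170 and 284, and below 0 were 791, 326 and 475. The share above 0 was thus higher in SCI than in naïve blood, and sham blood could not be told apart from either. Of the immature-stage genes 4 of 7 were at least 1.5-fold lower and 1 higher in SCI than in naïve blood (median -0.76). Of the memory-stage genes 6 of 12 were lower and 0 higher (median -0.60), where 7.49% of all genes were lower and 5.09% higher. SCI blood is therefore not read as more immature from the share above 0. The classes are ranges, not types: 70, 41 and 80 of those above and 414, 211 and 314 of those below lay within 1 of 0. Median depth above against below 0 was 3265.5 against 3741, 5044 against 5824.5 and 4596 against 5020 UMIs.

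At least 2-fold higher above than below 0 were 3 of 9 members in naïve blood, where 5.41% of genes were, 1 of 9 in sham blood, where 4.75% were, and 1 of 9 in SCI blood, where 3.31% were. VPREB3 was at 548, 254 and 165 CPM above, at and below 0 in naïve, 459, 333 and 200 in sham and 351, 291 and 172 in SCI blood, log2 ratios of above over below of 1.74 (1.43 to 2.04), 1.21 (0.84 to 1.55) and 1.03 (0.69 to 1.36). TCL1A was at 1978.7, 1022.6 and 721 CPM in naïve, 1787.0, 1401.8 and 1007.2 in sham and 1636.6, 1424.1 and 933 in SCI blood, or 1.46, 0.83 and 0.81. CD24 was at 646, 373 and 286 CPM in naïve, 638, 454 and 324 in sham and 618, 417 and 355 in SCI blood, or 1.18, 0.98 and 0.80. The levels of these 3 genes thus fell from above 0 through 0 to below 0 in each blood library. The thinned share of CD24 in SCI blood was 32.3% above, 16.5% at and 20.0% below 0, so at and below 0 are not read apart there. FCRLA was at 0.57, 0.62 and 0.24, CD79B at 0.36, 0.43 and 0.02 and CD22 at 0.55, -0.02 and 0.93. PAX5 (0.15, 0.21 and 0.08), CD79A (0.13, -0.09 and 0.05) and MS4A1 (0.00, -0.26 and -0.11) were close to even. With genes of naive mature B cells also subtracted, VPREB3 was at 1.38, 1.28 and 0.18, TCL1A at 0.75, 0.54 and 0.18, CD24 at 1.81, 0.81 and 1.14 and CD22 at 0.36, -0.37 and -0.19, so that VPREB3 lost its call in SCI blood and TCL1A in naïve blood while CD24 gained one in SCI blood.

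**Figure D3:**
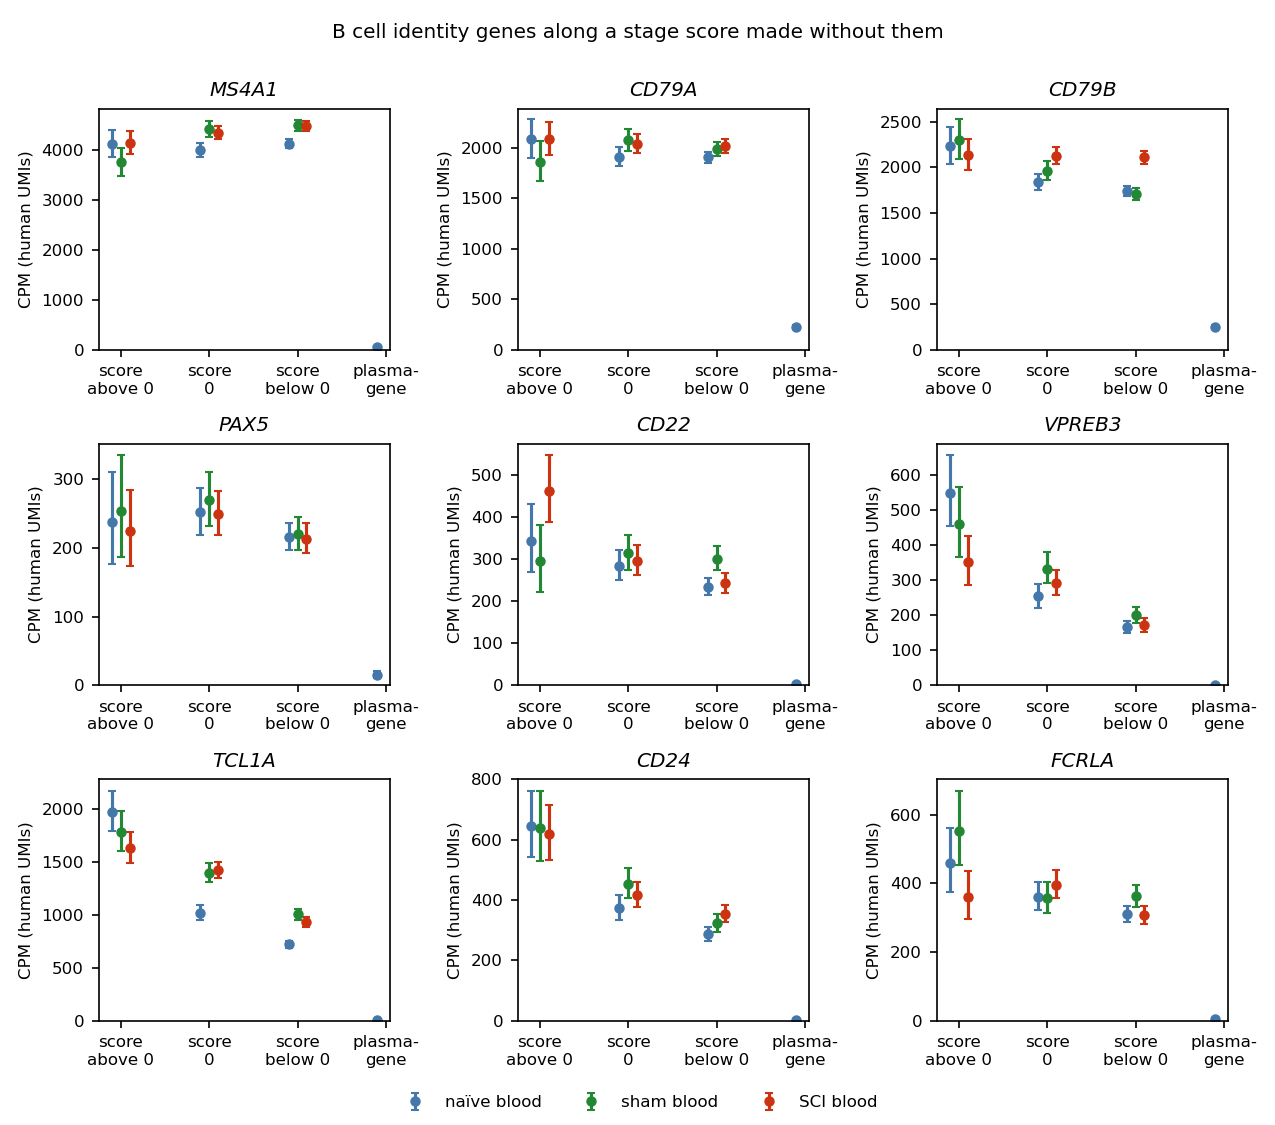
CPM (linear axes from 0) of each member in B barcodes with a stage score above 0, at 0 and below 0, and in plasma-gene barcodes, in the 3 blood libraries, with exact Poisson 95% intervals for counting error only; plasma-gene classes of under 10 barcodes, as in SCI blood, are not drawn. The levels of VPREB3, TCL1A and CD24 step down from above to below 0 in each library, and in naïve blood the plasma-gene barcodes lie lowest for each member.

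The injured cord held 9 B barcodes, set beside the SCI blood as a description. VPREB3 had a log2 ratio of cord over SCI blood of 1.85 (1.47 to 2.18), with 30 of its 75 UMIs in 1 barcode, and CD24 of 1.11 (0.76 to 1.43), with 32 of its 79 UMIs in 1 barcode. TCL1A was at 0.39 (0.13 to 0.63), PAX5 at 0.05, FCRLA at -0.13 and CD22 at -0.27. The receptor genes were lower in the cord, CD79A at -0.38 (-0.63 to -0.14), CD79B at -0.45 (-0.70 to -0.21) and MS4A1 at -0.83 (-1.03 to -0.64). Of the 9 barcodes, 3 held at least 3 monocyte, basophil or natural killer genes, and CD24 was at 547 CPM in T barcodes of the cord against 8.28 in those of SCI blood. The part of either in the cord values was not tested.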

How the data were processed

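Single-cell libraries of human CD45+ cells (10x 3' v3) were counted by the authors with CellRanger 3.1.0 on combined hg38 and mm10 genomes, and the deposited values are raw UMI counts per gene and barcode. Human barcodes (over 50% human UMIs) beyond 3 median absolute deviations (few UMIs or genes, high mitochondrial or ribosomal share) were removed, and doublets were marked with Scrublet in scanpy 1.11.5. Counts of B barcodes were summed per library, scaled to CPM, and compared as log2 ratios with 0.5 added counts for genes with at least 20 counts over both sides. TMM factors came from edgeR 4.0.16 (R 4.3.3), and scipy 1.17.1, numpy 2.4.6, pandas 2.3.3 and matplotlib 3.10.9 were used under Python 3.11.15. The log2 ratios and their intervals were tested on simulated Poisson counts summed per library. The barcode filters, the rule, thinning, the TCL1A split and the stage score were not.

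Named genes are the members, the 3 highest and 3 lowest of each gene list along TCL1A among genes tested in each blood library, the 8 genes most and least like TCL1A (at least 100 counts in each blood library), and per pair of blood libraries the 5 highest and 5 lowest genes with at least 100 counts over both and 50 CPM in one, without ribosomal, mitochondrial, immunoglobulin, T cell receptor and sex-linked genes. An HLA gene and another item among these are not reported here. Lists covered immature, naive mature, memory and plasma stages, the receptor pathway, transcription factors, T, natural killer, monocyte, basophil and mast, plasmacytoid dendritic and cycling cells. The members and lists were chosen with earlier results of these data known.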

Additional observations from a re-analysis of the deposited data

Results flagged for a closer look

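Mouse orthologues of the members had UMIs in barcodes with at least 90% mouse UMIs, which the comparisons do not use. Over all libraries Cd24a had 4865 UMIs, Cd22 84, Cd79b 32, Fcrla 6 and Cd79a 4, while Ms4a1, Pax5, Vpreb3 and Tcl1 had 0. Cd24a was in 53.9%, 42.7%, 40.4% and 12.0% of these barcodes in naïve, sham, SCI blood and cord, and 69 of the Cd22 UMIs were in the cord, in 37.0% of 92 barcodes.

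Kept human barcodes with UMIs of both the B genes MS4A1 or CD79A and of CD3 numbered 550, 527 and 757 in the blood libraries (naïve, sham, SCI) and 9 in the cord, of which 117, 34, 84 and 0 were marked as doublets. They stand outside the B barcodes by the rule.

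CD24 had a log2 ratio along TCL1A of 0.33 in naïve blood, of the opposite sign in sham blood (-0.23) and of 0.10 in SCI blood, where the interval includes 0. The thinned share with a UMI in TCL1A-positive against negative barcodes was 22.3% against 17.4%, 22.8% against 19.6% and 19.8% against 20.6%, so that in sham and SCI blood share and level point opposite ways. The difference between the libraries was not tested.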

How the results depend on the processing

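TCL1A-positive shares in naïve, sham and SCI blood moved to 50.9%, 63.9% and 65.2% with thinning to 2000 UMIs and to 59.3%, 81.7% and 80.6% with none, since deeper barcodes hold more UMIs, and to 18.6%, 23.3% and 21.0% with at least 2 UMIs asked for. With plasma-gene barcodes kept the naïve share was 31.8%. The median log2 ratio over the members was 0.92 for sham v naïve and 0.85 for SCI v naïve blood. It became 0.18 and 0.11 without plasma-gene barcodes (0 members past 1.5-fold in each) and 0.64 (5 past) and 0.61 (6 past) under TMM. With the mean over barcodes it was 0.35 (1 past) and 0.23 (0 past), and without immunoglobulin genes 0.72 and 0.66 (6 past in each). With at least 2 UMIs of MS4A1 and CD79A it was 0.64 (6 past) and 0.58 (4 past). SCI v naïve became 0.60 (6 past) as UMIs per barcode and 0.67 (7 past) with ribosomal and mitochondrial genes counted. For SCI v sham blood the median, -0.04, became -0.12 with the mean over barcodes, -0.37 as UMIs per barcode and -0.12 with ribosomal and mitochondrial genes.

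Of alternatives chosen after seeing the data, at least 2 UMIs of MS4A1 and CD79A without plasma-gene barcodes gave medians of 0.12 and 0.06 against naïve blood, leaving out barcodes with 1 or more plasma genes 0.12 and 0.08, and leaving out plasma-gene barcodes and those with 3 or more monocyte, basophil or natural killer genes 0.22 and 0.10, each with 0 members past 1.5-fold. In these 3 settings the genes past 1.5-fold for sham v naïve blood were 467 higher and 594 lower of 10361, 500 and 632 of 10256, and 405 and 646 of 10339. For SCI v naïve blood they were 525 and 758 of 10493, 508 and 746 of 10386, and 535 and 781 of 10497. The 0 is therefore not read as a result about the members. Along TCL1A the members past 2-fold became 8 in naïve blood with plasma-gene barcodes kept and 0 in sham blood without barcodes of 1 or more plasma genes. They became 1 in SCI blood without thinning and with at least 2 UMIs of TCL1A. No share of all genes past 2-fold is given for these settings. Ratios past 1.5-fold that lost their sign were CD79B in sham v naïve blood (-0.02 without barcodes of 1 or more plasma genes), PAX5 in SCI v naïve blood (0.00 without plasma-gene barcodes, -0.05 with at least 2 UMIs of MS4A1 and CD79A as well, -0.13 without barcodes of 1 or more plasma genes, -0.01 without those of 3 or more other-cell genes) and FCRLA in the same comparison (-0.01 with at least 2 UMIs and -0.06 without barcodes of 1 or more plasma genes). Where the construction does not show it, the cause was not tested. Of the other results under these alternatives, 138 summary values and 432 single values were counted as unchanged and 239 single values moved. Counts were held as unchanged under a wide tolerance. It took in a fall of members past 1.5-fold from 9 to 6 and of naïve B barcodes from 1396 to 1292. Over all single ratios, 17 of 459 between libraries and 13 of 219 along TCL1A or the score had the opposite sign under an alternative, among them CD79B in SCI v sham blood (-0.12 as UMIs per barcode), CD22 along the score in SCI blood (-0.19) and CD24 along TCL1A in sham blood (0.01). Depth limits the cord, with 9 B barcodes, to a description, and pooled animals, 1 library a group and host sex limit every comparison between groups.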
